A study of Mus musculus with 12 samples.

Results

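Fascin (Fscn1), thymosin beta 4 (Tmsb4x), destrin (Dstn), the gelsolin-like capping protein (Capg), Ena-VASP-like protein (Evl) and zyxin (Zyx) are 6 actin-binding proteins that act on different steps of filament assembly. They were picked by gene symbol because their levels had been seen to differ between an osteoblast line and an osteocyte line, and each has 1 of the 5030 spots on the array. Total RNA of 2 mouse lines was hybridised to 12 one-channel spotted arrays, 3 in each of 4 groups. The groups 2T3 C0 and 2T3 low come from 2T3, an osteoblast line taken from a mouse in which the BMP-2 promoter drives SV-40 T antigen. MLO-Y4 low and MLO-Y4 high come from MLO-Y4, an osteocyte line taken from a mouse in which the osteocalcin promoter drives T antigen, so both lines carry the viral oncogene. The labels contrast sparse with confluent culture for 2T3, and presence with absence of gap junctions for MLO-Y4; C0 was taken as confluent and high as the state with gap junctions only because the other group of each line is called low. Each cell type is represented by 1 line, so cell type, line and source mouse cannot be told apart. The labels do not say that the numbered arrays are separate cultures, and the p-values below therefore measure the spread between arrays, which may be technical.

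Actin filaments grow from monomers at one end, the barbed end, and are taken apart at the other, and cells set their shape by controlling how fast each happens. Bundling proteins hold filaments side by side in thin protrusions, sequestering proteins keep a store of free monomer, severing and depolymerising proteins return filaments to monomer, and capping proteins stop barbed-end growth that elongation factors prolong. Osteocytes are known for long, actin-filled dendritic processes that run through canals in bone, whereas osteoblasts are plumper cells that lie on the bone surface.

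Fscn1, Evl and Tmsb4x were the lower members in MLO-Y4, and Dstn, Zyx and Capg were the higher ones (the plot of intensity by array). Because this difference between the lines was the reason for choosing the 6 genes, it is given as a description with its standard error and no test. Fscn1 had the largest of the falls, by 4.76 on the log2 scale (SE 0.67), and Dstn the largest of the rises, 3.45 (SE 0.43). None of the 6 passed a test between the culture states of either line.

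**Figure D1:**
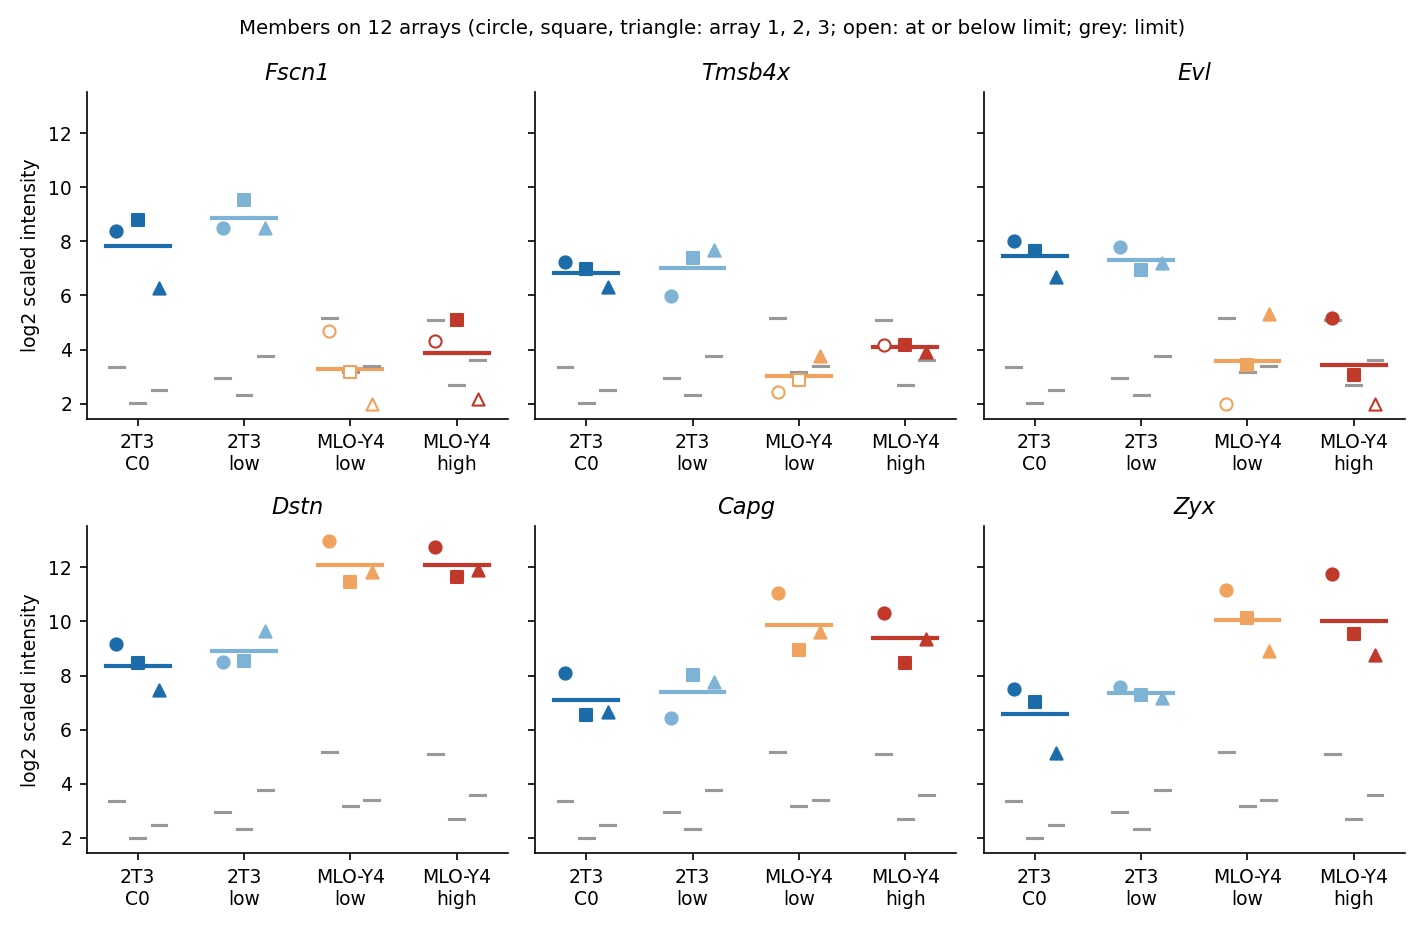
Scaled intensity (log2) of the 6 genes on each of the 12 arrays, by group, with the group mean as a bar and open symbols for values at or below the array's detection limit. Fscn1, Tmsb4x and Evl sit higher on the 2T3 arrays, and Dstn, Capg and Zyx on the MLO-Y4 arrays.

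The sequences just before 3 of the start sites are shown because these genes stand for the 2 directions: Fscn1 was the furthest down in MLO-Y4, and Dstn and Zyx were the furthest up. Each is the 250 bases before a start site from RefSeq on mouse build GRCm38.p6, read 5′ to 3′ on the plus strand, in lower case with matches to a searched motif in capitals. All 6 members matched an entry by symbol, with 7 windows in all, Evl having 2, and the Zyx window belongs to a transcript other than the one that sets the gene's start.
Fscn1, chr5:142960105-142960354: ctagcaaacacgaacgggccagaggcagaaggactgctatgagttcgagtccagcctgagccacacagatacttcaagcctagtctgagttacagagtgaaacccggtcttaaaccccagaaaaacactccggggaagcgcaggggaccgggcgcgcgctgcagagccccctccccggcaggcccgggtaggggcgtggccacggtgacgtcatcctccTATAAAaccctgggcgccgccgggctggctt
Dstn, chr2:143915081-143915330: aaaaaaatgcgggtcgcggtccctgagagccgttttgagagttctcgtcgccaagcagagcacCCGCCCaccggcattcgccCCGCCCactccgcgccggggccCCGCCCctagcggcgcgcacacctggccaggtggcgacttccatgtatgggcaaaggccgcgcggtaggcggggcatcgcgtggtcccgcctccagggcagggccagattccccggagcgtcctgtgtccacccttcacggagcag
Zyx, chr6:42349578-42349827: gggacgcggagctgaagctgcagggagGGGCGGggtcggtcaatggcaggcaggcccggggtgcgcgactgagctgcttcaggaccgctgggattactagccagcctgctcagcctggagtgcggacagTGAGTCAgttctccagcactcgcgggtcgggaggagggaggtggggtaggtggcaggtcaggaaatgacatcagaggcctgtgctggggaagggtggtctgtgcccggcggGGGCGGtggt
The capitals in Fscn1 are TATAAA, whose first base lies 31 bases before the start. In Dstn they are 3 copies of GGGCGG on the minus strand, at 187, 168 and 146 bases before the start. In Zyx they are GGGCGG on the plus strand at 223 and 10 bases and TGACTCA on the minus strand at 121 bases. Both strands were searched, and no matches of different motifs overlapped in the member windows. Over all 32851 windows of the same length, 12.4% held TATAAA, 32.7% held GGGCGG and 4.46% held TGACTCA. In 1 of the Evl windows GGGCGG was also matched 3 times, and it occurred once in the Tmsb4x window, and the Capg window held none of the motifs. CCAAT, found in 33.8% of all windows, and the CArG box, found in 1.47%, were matched in 0 of the 7 windows. A match describes these letters only, and no binding was measured here.

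The deposited intensities ran from -23 to 53055 and array totals from 212491 to 1680311, with 2T3 low replicate 3 the dimmest. Arrays were scaled to equal medians, so that a value is given in scaled intensity units, and values under 3.96 units were raised to that floor before log2 was taken. The limit of detection was set, array by array, at the absolute value of the most negative intensity. MLO-Y4 low replicate 1 and MLO-Y4 high replicate 1 stood apart, with limits of 36.3 and 34.3 scaled units against 4.04 to 13.6 on the other arrays. On these 2 arrays the deposited median that set the scale, 10 and 9, lay below the deposited limit, 20 and 17. Without the 4 arrays numbered 1 the line difference was -5.17 for Fscn1, -3.40 for Tmsb4x, -3.67 for Evl, 3.17 for Dstn, 1.86 for Capg and 2.68 for Zyx. The labelled cell types were checked against marker lists. Of the osteocyte markers, Pdpn, Ackr3 and Cd44 were detected on all 12 arrays and Phex on 0. Mean scaled units in 2T3 and MLO-Y4 were 132 and 1454 for Pdpn, 20.9 and 719 for Ackr3 and 65.1 and 578 for Cd44. Of the osteoblast markers, Alpl was above the limit on all 12 arrays. Bglap was above it on 6 of the 6 2T3 arrays and 4 of the 6 MLO-Y4 arrays, and Ibsp on 4 and 1. The osteoblast list did not run one way: Alpl had a mean of 42.7 scaled units in 2T3 and 308 in MLO-Y4, whereas Dlx5 had 957 and 420.3, Msx2 316 and 38.7, Omd 11.8 and 5.23 and Bglap 159 and 52.1.

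Fscn1 encodes fascin, which packs filaments into the tight parallel bundles of filopodia. Its scaled intensity was 334, 448 and 77.0 on the 2T3 C0 arrays 1 to 3 and 360, 747 and 363 on the 2T3 low arrays. On MLO-Y4 it was 25.4, 9.08 and 0 on the low arrays and 20.2, 33.7 and 4.54 on the high arrays. The lowest 2T3 array, C0 replicate 3, was above the highest MLO-Y4 array, so the lines did not overlap. Fscn1 was above the limit on 6 of 6 2T3 arrays but only on MLO-Y4 high replicate 2 among the MLO-Y4 arrays, so most of the MLO-Y4 values have no order. Mean log2 levels (± SD, n = 3) were 8.85 ± 0.605 in 2T3 low, 7.82 ± 1.36 in 2T3 C0, 3.87 ± 1.503 in MLO-Y4 high and 3.28 ± 1.34 in MLO-Y4 low. The line difference is 27.1-fold when undetected values are kept as measured, except that MLO-Y4 low replicate 3 was raised to the floor. It is 16.9-fold when each is raised to its array's limit, a setting chosen after the data were seen. Against 2T3 low, MLO-Y4 low was at least 30.3-fold lower, counting the undetected spots at the lowest signal their arrays could show.

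Within an array, where scaling plays no part, Fscn1 ranked between the 79.6th and 96.4th percentile of all spots on 2T3 arrays and between the 7.87th and 60.1st on MLO-Y4 arrays. Those ranges were apart. The spot of Fscn3, a fascin of the testis, gave mean levels of 120 in 2T3 and 136 in MLO-Y4; it was looked up after the members' values were seen. Its line difference was 0.17 (SE 1.03, limma adjusted p = 0.961).

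Tmsb4x encodes thymosin beta 4, the small peptide that holds much of a cell's unpolymerised actin in reserve. On 2T3 it read 150, 125 and 78.6 scaled units in C0 and 63.9, 167 and 204 in low. MLO-Y4 gave 5.45, 7.27 and 13.6 in low and 18.2, 18.2 and 15.1 in high. The lines did not overlap, the nearest values being 63.9 and 18.2. Detection in MLO-Y4 was partial, on 3 of 6 arrays, against 6 of 6 in 2T3. Log2 means were 7.02 ± 0.90 in 2T3 low, 6.83 ± 0.48 in 2T3 C0, 4.10 ± 0.15 in MLO-Y4 high and 3.03 ± 0.68 in MLO-Y4 low (SD, n = 3). Between the lines Tmsb4x fell by 3.36 on the log2 scale (SE 0.39), 10.3-fold, or 6.50-fold with undetected values at their limits. Percentile ranks were 76.5 to 86.6 in 2T3 and 29.5 to 49.8 in MLO-Y4, which also left a gap.

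Dstn encodes destrin, the actin-depolymerising factor that severs filaments and speeds the loss of monomer from them. It was the brightest of the 6 spots in MLO-Y4, with 8025, 2829 and 3596 scaled units in low and 6832, 3169 and 3843 in high. In 2T3 it read 581, 357 and 176 in C0 and 359, 376 and 799 in low. Every MLO-Y4 array was above every 2T3 array, and array 1 was the highest of each MLO-Y4 group in scaled units. By rank within the array it was not. In low, replicate 1 had 98.95% against 99.07% on replicate 3, and in high 98.81% against 99.11% on replicate 2. The 4 group means on the log2 scale were 12.09 ± 0.58 in MLO-Y4 high, 12.08 ± 0.79 in MLO-Y4 low, 8.90 ± 0.65 in 2T3 low and 8.37 ± 0.87 in 2T3 C0 (SD, n = 3). Averaged over each line, Dstn went from 397 scaled units in 2T3 to 4352 in MLO-Y4, 11.0-fold, and all 12 arrays were above their limits. On its own array it ranked between 89.5 and 95.8% of spots in 2T3 and between 98.7 and 99.1% in MLO-Y4.

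Capg encodes a member of the gelsolin family that caps barbed ends without severing, and is best known from macrophages. Its 2T3 values were 275, 92.9 and 99.8 in C0 and 86.5, 258 and 218 in low. The MLO-Y4 values were 2137, 491 and 790 in low and 1258, 357 and 648 in high. The lines were apart by little: the lowest MLO-Y4 array had 357 units and the highest 2T3 array 275. Log2 means were 9.88 ± 1.08 in MLO-Y4 low, 9.37 ± 0.91 in MLO-Y4 high, 7.40 ± 0.85 in 2T3 low and 7.09 ± 0.88 in 2T3 C0 (SD, n = 3). The rise of 2.37 (SE 0.52) is 5.19-fold, the smallest of the 6 differences. By rank the lines met, with 79.8 to 90.7% in 2T3 and 90.4 to 96.3% in MLO-Y4, and they overlapped under quantile normalization too. Of 7 macrophage and osteoclast markers, all on the array, Ptprc was above the limit on 0 of 12 arrays, Csf1r on 1 of 6 2T3 and 2 of 6 MLO-Y4 arrays and Acp5 on 0 and 2. Ctsk was above it on all 12 arrays, with means of 85.5 in 2T3 and 189 in MLO-Y4, while Tyrobp was above it on 6 and 1, Cd68 on 6 and 3 and Cd14 on 5 and 3 of 6. Their summed scaled intensity ran from 132 to 400.5 in 2T3 C0, 251 to 336 in 2T3 low, 188 to 512 in MLO-Y4 low and 174 to 822 in MLO-Y4 high, and the part of such cells in the Capg difference was not tested.

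Evl encodes a protein of the Ena and VASP family, which sits at barbed ends, adds actin and keeps capping proteins off. It read 256, 202 and 103 scaled units on the 2T3 C0 arrays and 221, 123 and 145 on the 2T3 low arrays. The MLO-Y4 arrays gave -20.0, 10.9 and 39.4 in low and 36.3, 8.44 and 1.51 in high. Each MLO-Y4 value was below each 2T3 value, and 4 of 6 MLO-Y4 arrays were above their limits. The MLO-Y4 spread was wide for a spot this dim, with log2 means of 3.58 ± 1.66 in low and 3.42 ± 1.625 in high against 7.45 ± 0.68 in 2T3 C0 and 7.31 ± 0.43 in 2T3 low (SD, n = 3). MLO-Y4 low replicate 1 and MLO-Y4 high replicate 3 entered these means at the floor, so the MLO-Y4 spread depends on it. Evl fell by 3.88 (SE 0.65) between the lines, 14.7-fold, or 8.46-fold with undetected values at their limits. Its rank was 81.8 to 91.8% in 2T3 and 1.71 to 62.1% in MLO-Y4.

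Zyx encodes zyxin, a LIM-domain protein of focal adhesions and stress fibres that brings Ena and VASP proteins to them. In MLO-Y4 its scaled intensity was 2278, 1132 and 477 in low and 3430, 740 and 438 in high. In 2T3 it was 183, 130 and 35.7 in C0 and 193, 155 and 145 in low. The lines did not overlap, and both MLO-Y4 groups spanned a wide range with array 1 at the top. Log2 means were 10.07 ± 1.13 in MLO-Y4 low, 10.02 ± 1.54 in MLO-Y4 high, 7.35 ± 0.21 in 2T3 low and 6.57 ± 1.25 in 2T3 C0 (SD, n = 3), where C0 replicate 3 was the low array. Zyx rose by 3.08 (SE 0.62), from a mean of 124 to 1053 scaled units or 8.47-fold. It ranked at 66 to 90.4% in 2T3 and 92.0 to 97.6% in MLO-Y4.

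All 6 members were among the 6.86% of spots (345 of 5030) whose lines did not overlap, and each lay in the direction that led to its choice, so nothing is read from that count. In these bulk cultures, fewer cells expressing a gene and less of its RNA per cell cannot be told apart. Scaling moved the sizes but no direction (the plot of line differences). Equal medians placed the spots detected everywhere (above the limit on 12 of 12 arrays) 0.79 higher in MLO-Y4 by their median, a shift that was 0.04 after quantile normalization and -0.07 when the arrays were scaled on those very spots. The share of all called spots that were higher in MLO-Y4 moved with it, from 81.5% to 62.6% and 43.8%. Dstn then went from 3.45 to 2.49 and 2.60, Zyx from 3.08 to 2.21 and 2.23, and Capg from 2.37 to 1.47 and 1.52. Fscn1 went from -4.76 to -4.97 and -5.596, Evl from -3.88 to -4.03 and -4.54, and Tmsb4x from -3.36 to -3.46 and -4.11. Relative to the shift under equal medians, the differences were 2.67 for Dstn, 2.30 for Zyx, 1.59 for Capg, -4.15 for Tmsb4x, -4.67 for Evl and -5.55 for Fscn1.

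**Figure D2:**
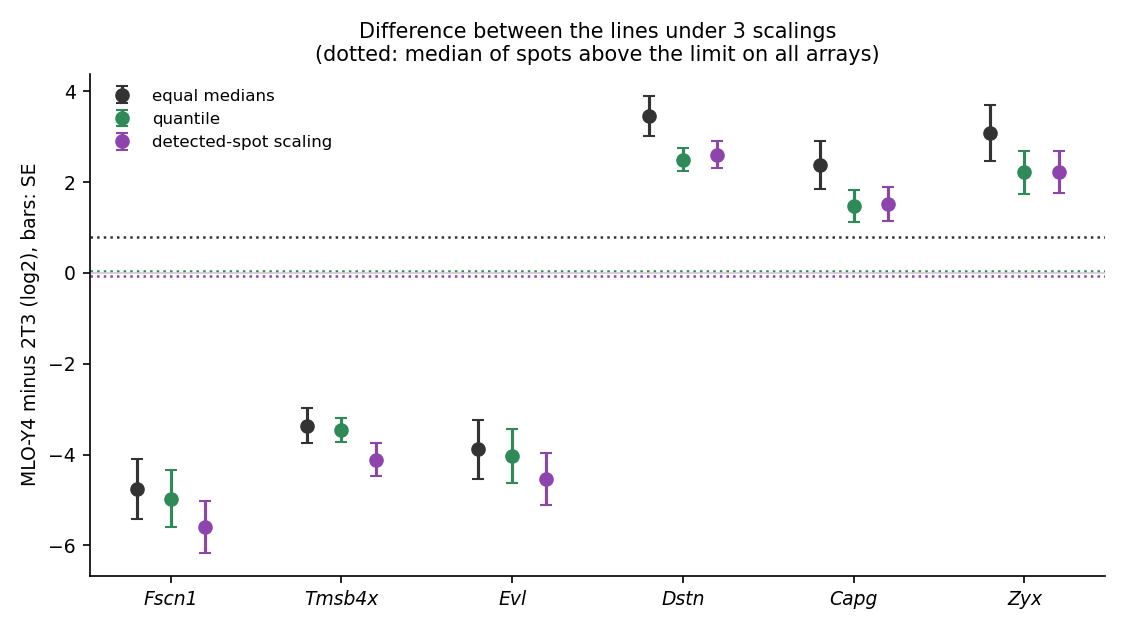
MLO-Y4 minus 2T3 difference (log2) of the 6 genes under 3 scalings of the arrays, with bars of 1 standard error and a dotted line at each scaling's median for spots detected on every array. Dstn, Zyx and Capg stay above 0 and Fscn1, Evl and Tmsb4x below 0, with smaller rises and larger falls outside equal medians.

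Split by density, the differences kept their direction. These are the same values that led to the choice of the genes, so nothing is read from that. Between the low groups (MLO-Y4 low minus 2T3 low) the fitted values were -5.57 for Fscn1, which is no measured size because 0 of 3 MLO-Y4 low arrays detected it (the bound above applies), -3.99 for Tmsb4x, -3.73 for Evl, 3.19 for Dstn, 2.72 for Zyx and 2.47 for Capg. Between MLO-Y4 high and 2T3 C0 they were -3.95, -2.73, -4.035, 3.72, 3.45 and 2.28 in the same order. Dstn and Zyx had larger estimates in the second pair, no order can be given for Fscn1, and the tests of such a change are those of the difference between density effects given next.

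Culture density was not used to choose the genes, and here tests apply. Within each line the 2 group means of a member differed by less than the larger of their SDs, except for Tmsb4x in MLO-Y4. In 2T3 (C0 minus low) the estimates were -1.03 for Fscn1 (95% interval -3.10 to 1.05), -0.78 for Zyx (-2.70 to 1.14), -0.52 for Dstn (-1.87 to 0.83), -0.31 for Capg (-1.93 to 1.31), -0.19 for Tmsb4x (-1.39 to 1.02) and 0.14 for Evl (-1.90 to 2.19). The arrays of the groups overlapped for each member. Of the 6 members, 0 passed limma's test (adjusted p = 1 each, smallest unadjusted p 0.298), and of all 5030 spots 0% passed, with 141 at an unadjusted p under 0.05. Fscn1 had the widest interval and Tmsb4x the narrowest. For 3 members most of the estimate came from 2T3 C0 replicate 3: without it, Fscn1 had -0.25, Dstn -0.0653 and Zyx -0.077. Capg was near 0 without any of 4 arrays, at -0.0332 without C0 replicate 2, -0.0849 without C0 replicate 3, -0.0078 without low replicate 2 and -0.13 without low replicate 3.

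In MLO-Y4 (high minus low) Tmsb4x had an estimate of 1.07 (95% interval -0.13 to 2.27, unadjusted p = 0.0763, limma adjusted p = 1). It was higher in high for all 3 numbered pairs, by 1.74, 1.32 and 0.15, but 3 of those 6 values were at or below the limit. Its estimate was 0.57 with the 40th-percentile floor and 0.36 with undetected values at their limits, where Fscn1 had 0.67 and Evl -0.69. Capg was lower in high for all 3 pairs, by -0.76, -0.46 and -0.29, with an estimate of -0.50 (-2.13 to 1.12). Dstn differed by 0.01 (-1.34 to 1.36), Zyx by -0.05 (-1.97 to 1.87), Evl by -0.16 (-2.20 to 1.88) and Fscn1 by 0.59 (-1.49 to 2.66). The model behind these intervals leaves out the array numbers, although equal numbers pair the MLO-Y4 groups by the correlation rule given below. No member passed (0 of 6), nor did any of all spots (0% in limma, 116 at an unadjusted p under 0.05). The Dstn estimate was near 0 in every numbered pair (-0.23, 0.16 and 0.10), whereas Evl went from 3.20 to -3.31 between pairs. Neither Evl extreme is a measured size. The 3.20 rests on MLO-Y4 low replicate 1 and the -3.31 on MLO-Y4 high replicate 3, both undetected and raised to the floor.

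The difference between the density effects of the lines was 1.61 for Fscn1, 1.26 for Tmsb4x, 0.73 for Zyx, 0.53 for Dstn, -0.19 for Capg and -0.31 for Evl. Fscn1 was detected on only 1 of 6 MLO-Y4 arrays and Tmsb4x on 3 of 6. With undetected values at their limits the difference was 1.70 for Fscn1, 0.54 for Tmsb4x and -0.83 for Evl. Without 2T3 C0 replicate 3 it was 0.84 for Fscn1. In limma 0 of 6 passed, against 0% of all spots, with 104 spots at an unadjusted p under 0.05; the smallest unadjusted p among the members was 0.132, for Tmsb4x. A density response that differs between the lines was therefore not detectable for these genes with 3 arrays a group (the plot of density differences).

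**Figure D3:**
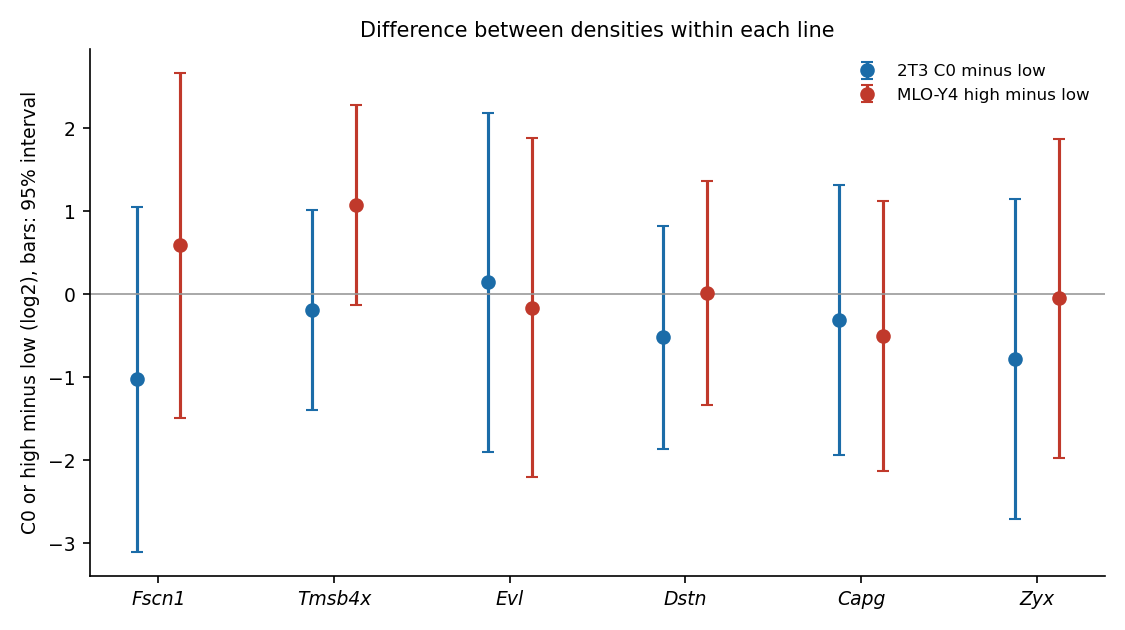
Density difference (log2, C0 or high minus low) of the 6 genes in 2T3 and in MLO-Y4, with 95% intervals from limma. Each interval includes 0.

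Relatives of the members with a spot of their own had smaller estimates between the lines, a contrast that was not itself tested. The members had been chosen for their line difference, so nothing is read from that contrast. The relatives were named whatever their values, though with earlier results of these data known, and limma's test is given with that limit. Cfl1 and Cfl2, the cofilins that share destrin's fold and action, differed by 0.78 (SE 0.46, adjusted p = 0.385) and 0.64 (SE 0.42, adjusted p = 0.448) in limma. Under quantile and detected-spot scaling Cfl1 had -0.68 and -0.08, and Cfl2 -0.25 and -0.22. Gsn, gelsolin, which both severs and caps, differed by 0.76 (SE 0.42, limma adjusted p = 0.343), and by -0.08 and -0.09 under quantile and detected-spot scaling. Trip6, a LIM protein related to zyxin, differed by 0.71 (SE 0.31, limma adjusted p = 0.206), and by -0.06 and -0.14 under quantile and detected-spot scaling. The 2 spots of Enah, which encodes Mena, the other Ena and VASP protein measured, differed by 1.58 (SE 0.66, limma adjusted p = 0.187) and 0.48 (SE 0.50, limma adjusted p = 0.678). Under quantile and detected-spot scaling the first spot had 1.37 and 0.85, and the second 0.09 and -0.38. No call was made on any of them in limma, and none passed between culture states (limma adjusted p = 1 each). Among the spots with 1 symbol, none was named Fscn2, Tmsb10, Vasp or Lpp.

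A ratio of 2 spots on the same array needs no scaling, though its size depends on the spots as well as on the RNA (the plot of within-array ratios). Each numerator below is a member chosen for its line difference. A ratio that separates the lines therefore repeats that choice and is given as a description. The deposited intensity of Dstn over that of Cfl1 was 0.0121 to 0.0341 on the 2T3 arrays (median 0.0226) and 0.0861 to 0.176 on the MLO-Y4 arrays (median 0.139), with no overlap. Dstn over Cfl2 likewise went from 0.461 to 1.56 in 2T3 to 3.68 to 7.37 in MLO-Y4. Capg over Gsn was 0.508 to 1.16 in 2T3 and 1.73 to 3.99 in MLO-Y4, also apart. Evl over Enah, read on the Enah spot detected on more arrays (line difference 0.48), went the other way. It was 1.98 to 9.38 in 2T3 and 0.146 to 1.18 on 5 MLO-Y4 arrays. MLO-Y4 low replicate 1 was left out because Evl and this Enah spot were both below its limit. MLO-Y4 high replicate 3 entered as an upper bound, with Evl at its limit. Zyx over Trip6 overlapped, at 0.240 to 2.07 and 1.36 to 14.9. Ratios between members show their unequal change directly, and carry the direction for which they were chosen. Dstn over Tmsb4x, a severing over a sequestering protein, was 2.24 to 5.62 in 2T3 and 174, 264 and 254 on the 3 MLO-Y4 arrays that detected Tmsb4x. On the other MLO-Y4 arrays, with Tmsb4x put at its limit, it was at least 199, 221 and 311. Zyx over Evl, an adhesion protein over the elongation factor of the family it recruits, was 0.345 to 1.25 in 2T3 and 12.1 to 104 on the 4 MLO-Y4 arrays that detected Evl, and at least 62.7 and 36.1 on the others. Dstn over Zyx, both higher in MLO-Y4, overlapped between the lines at 1.86 to 5.50 and 1.99 to 8.78.

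**Figure D4:**
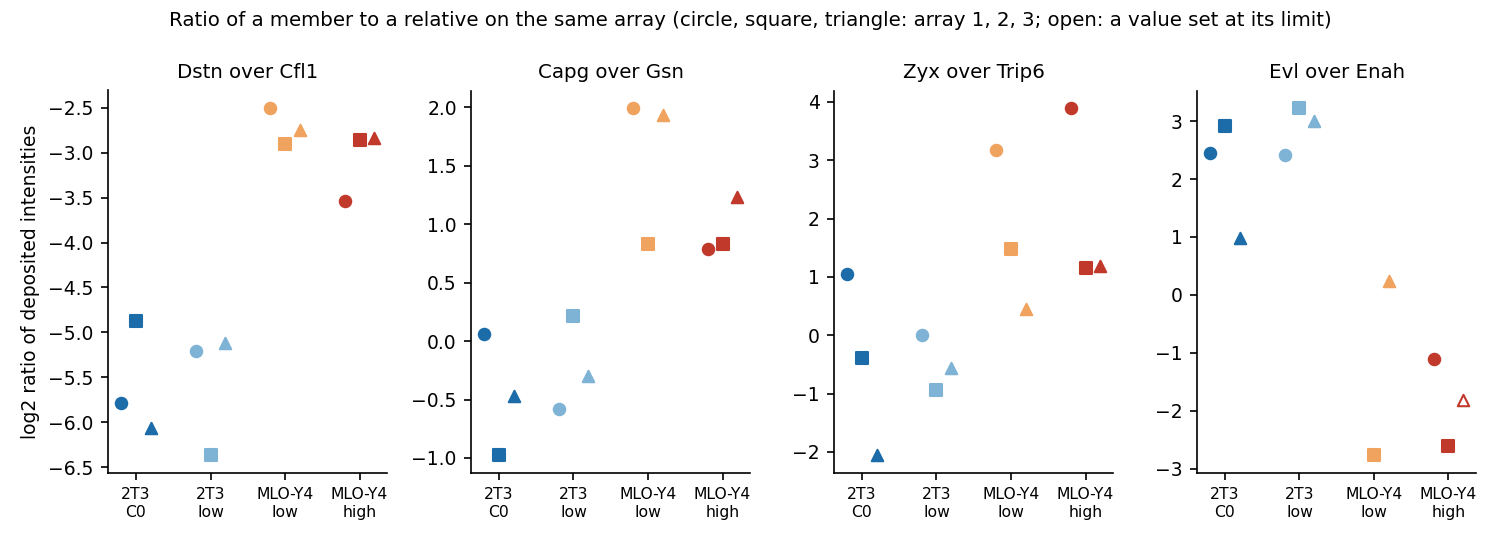
Ratio (log2) of deposited intensities of a member and a relative on the same array, by group, with a symbol for each array number and open symbols where a value was set at its limit. Dstn over Cfl1, Capg over Gsn and Evl over Enah separate the lines and Zyx over Trip6 does not. The members were chosen for their line difference. For Enah the spot detected on more arrays was used.

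Beyond the 6 members, a list of 175 actin regulators had 80 spots for 79 genes, 38 of them above the limit on all 12 arrays and 5 below it on every array. Between the lines 4 were higher in MLO-Y4 and 3 lower (limma, adjusted p under 0.05). That is 8.75% of the list against 10.1% of all spots, where 8.23% were higher and 1.87% lower, so the list was called about as often as the background. Its median difference was 0.39 against 0.11 over all spots, and 17 of its spots had an unadjusted p under 0.05, as did 1081 of all 5030. With the replicate number as a block, 7 list spots were higher and 3 lower, with 629 of all 5030 spots called. By role, the calls were 2 higher and 2 lower of 17 bundling and cross-linking spots, 1 higher of 12 severing, 1 higher of 6 capping and 1 lower of 18 adhesion spots, with 0 of 4 monomer-binding, 0 of 11 nucleation and elongation and 0 of 2 side-binding spots. In 2T3 C0 against low, 0 of 80 passed, 4 at an unadjusted p under 0.05. In MLO-Y4 high against low 0 of 80 passed, 0 at that unadjusted level, and for the difference of density effects 0 passed and 1 was at that level, all by limma.

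Lasp1, a LIM and SH3 protein of adhesions and leading edges, rose from a mean of 256 to 1290 scaled units (2.33, SE 0.44, limma adjusted p = 0.00674). Marcksl1, a membrane-bound filament cross-linker, was above the limit on 0 of 6 2T3 arrays and 4 of 6 MLO-Y4 arrays and exceeded its 2T3 bound by at least 5.40-fold (limma adjusted p = 0.00473). Its relative Marcks fell by 3.16 (SE 0.83, limma adjusted p = 0.0358), from 88.3 to 9.86 scaled units, with 2 of 6 MLO-Y4 arrays above the limit. The 2 cross-linkers of this family thus had estimates of opposite sign, as read on spots that were near the limit in the lower line. With undetected values at their limits the estimates were 2.61 for Marcksl1 and -1.87 for Marcks. Dbn1, drebrin, a filament-binding protein known from dendritic spines, fell by 2.32 (SE 0.56, limma adjusted p = 0.0232), with 4 of 6 MLO-Y4 arrays above the limit. Eps8, which caps and bundles, rose by 2.69 (SE 0.61, limma adjusted p = 0.0173, and 0.0612 with detected-spot scaling). Wdr1, which helps cofilin take filaments apart, rose by 1.74 (SE 0.44, limma adjusted p = 0.0285), a call lost under quantile normalization (0.108) and detected-spot scaling (0.0739). Fhl1, a LIM protein of muscle and adhesions, fell by 3.62 (SE 0.79, limma adjusted p = 0.0147), from 113 to 9.21 scaled units. Only 2 of 6 MLO-Y4 arrays were above the limit for Fhl1, and its difference was -2.83 with undetected values at their limits. The calls of Marcks, Wdr1 and Dbn1 were lost in 10, 7 and 5 of the 12 fits that each left out 1 array. Without the 4 arrays numbered 1, limma's adjusted p was 0.121 for Marcksl1, 0.178 for Eps8, 0.0578 for Fhl1, 0.245 for Marcks and 0.0684 for Wdr1. The call of Marcks was also lost with the 40th-percentile floor (limma adjusted p = 0.0584) and that of Dbn1 with values at the limit (limma adjusted p = 0.06), while Lasp1 kept its call under each setting (the plot of the list by role).

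**Figure D5:**
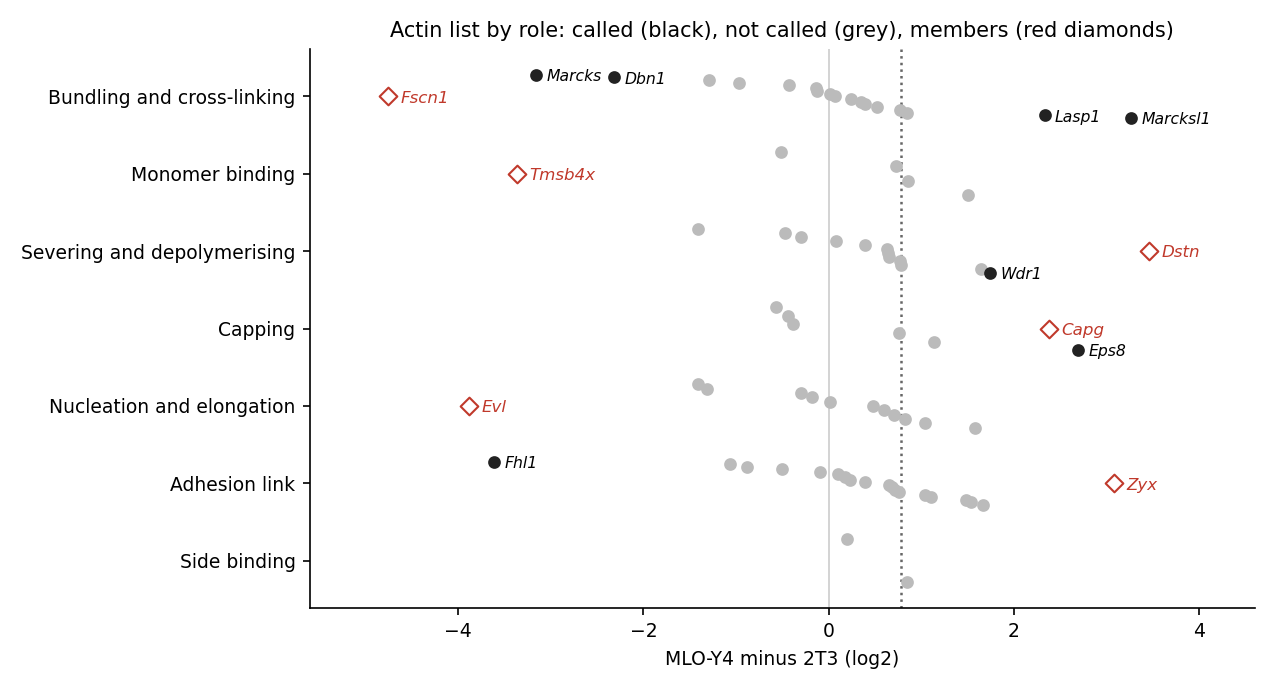
MLO-Y4 minus 2T3 difference (log2) of list spots in the 7 roles described, with the 7 called genes in black, the others in grey and the 6 members as red diamonds; the dotted line is the 0.79 shift of spots detected on all arrays. Marcksl1 and Lasp1 lie to the right and Marcks and Dbn1 to the left among the bundling proteins.

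The spots whose profile over the 12 arrays was most like each member's were found by the root mean square difference of centred log2 values, over 2897 spots detected on 6 or more arrays. For Dstn they were Mgat1 (0.35) and Net1 (0.37), for Capg Cdkn2a (0.33) and Ugdh (0.34), and for Zyx Igfbp7 (0.43) and Phyh (0.45). For Tmsb4x they were Nid2 (0.64) and Mras (0.69), for Evl Zfp57 (0.75) and Hs6st2 (1.03), and for Fscn1 Mfap5 (1.08) and Six2 (1.13). The members that were higher in MLO-Y4 had the closer matches, and the lower ones include values at the limit. Among the members, Dstn lay closest to Zyx (0.70) and Capg (0.735), and Tmsb4x to Evl (1.05). Fscn1 was 1.36 from Tmsb4x and 1.59 from Evl.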

How the data were processed

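The 12 deposited columns hold linear spot intensity, read from the values (whole numbers, some below 0, so a background had been subtracted by the authors). How images were read, how background was subtracted and whether arrays were normalized is not given in the sources used here. Spots were named through the platform annotation: 4633 of 5030 had 1 symbol, 5 had several and 392 none, and 4624 were updated by Entrez ID.

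Each array was scaled to a common median, values were floored at the 25th percentile (3.96 units) because the planned 10th percentile was below 0 (-1.32), and log2 was taken. A 4-group model with 8 residual degrees of freedom was fitted to all spots in limma 3.58.1 (R 4.3.3), two-sided, with Benjamini-Hochberg adjustment and a threshold of 0.05. On simulated arrays with known changes the fitted sizes and signs came back, but false calls were more frequent than the threshold allows, and a planned bar on the number of calls recovered was dropped after it was missed; calls on single list genes are to be read with that in mind. A fold against a group undetected on every array is a bound.

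The members, gene lists and markers were chosen with earlier results of these data known. The role counts of 1 group of the actin list are not reported here. Named are the members, the list genes called, the members' relatives, and the 2 spots with the most similar profile. Alternatives were quantile and detected-spot scaling, another floor, a dim-spot filter, an intensity trend, the replicate number as a block and left-out arrays. A block within each line and values set at the limit were added after the data were seen.

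Deviations from the group means correlated between equal numbers of the MLO-Y4 groups (0.627, 0.480 and 0.514), and also between 2T3 C0 and MLO-Y4 low (0.471, 0.263 and 0.421) and 2T3 C0 and MLO-Y4 high (0.504, 0.2925 and 0.375). By the rule that every pair exceed 0.1, numbers pair these 3 groups with each other but not 2T3 low, which gave 0.0673, 0.0991 and 0.113 with 2T3 C0, -0.0265, -0.118 and 0.0889 with MLO-Y4 low and 0.0285, -0.0457 and 0.129 with MLO-Y4 high. The labels give no meaning of the numbers. Marker lists of other cell types gave these ranges of summed scaled intensity in 2T3 and MLO-Y4, over both groups of a line. Endothelial markers ran from 6.86 to 70.2 and from 12.7 to 281, and muscle markers from 39.5 to 159 and from 96.3 to 372. Neural markers ran from 186 to 499.6 and from 1.82 to 81.8, and the single measured adipocyte marker, Pparg, from 25.1 to 257 and from 1.82 to 30.3. Osteoblast markers ran from 1243 to 1976 and from 888 to 2635, and osteocyte markers from 111 to 406 and from 1345 to 7268. The part of other cells in the results was not tested.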

Additional observations from a re-analysis of the deposited data

How the results depend on the processing

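The line difference kept its sign for all 6 members under each setting. It moved by more than the spread between arrays for Tmsb4x with detected-spot scaling (-4.11) and with undetected values at their limits (-2.70), and for Dstn with quantile normalization (2.49) and detected-spot scaling (2.60). Leaving out 1 array in turn gave -5.15 to -4.34 for Fscn1, -3.62 to -3.20 for Tmsb4x, 3.23 to 3.66 for Dstn, 2.08 to 2.63 for Capg, -4.32 to -3.48 for Evl and 2.65 to 3.39 for Zyx. Signs turned only among uncalled density differences. In MLO-Y4 these were Evl with quantile normalization (0.0291) and Zyx with quantile (0.0209) and detected-spot scaling (0.0503), and the difference of density effects of Capg was 0.93 without the 4 arrays numbered 1. With 1 array left out, the 2T3 difference ran from -0.70 to 0.14 for Tmsb4x and -0.13 to 0.52 for Evl, and without a turn from -1.52 to -0.25 for Fscn1, -0.93 to -0.0653 for Dstn, -0.82 to -0.0078 for Capg and -1.26 to -0.077 for Zyx. The MLO-Y4 difference ran from -0.061 to 1.43 for Fscn1, -0.31 to 0.45 for Dstn, -0.97 to 0.0896 for Capg, -1.05 to 0.70 for Evl and -0.91 to 0.57 for Zyx. The difference of density effects ran from -0.66 to 0.40 for Capg, -1.19 to 0.55 for Evl and -0.13 to 1.35 for Zyx. The cause of these turns was not tested.

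Of the 80 spots of the actin list, detected-spot scaling called 2 higher and 7 lower and quantile normalization 3 higher and 6 lower. Leaving out the 4 arrays numbered 1 called 2 higher and 1 lower. Of all 5030 spots these settings called 548 (240 higher), 468 (293 higher) and 451, in the same order. Leaving out 1 array gave 3 to 8 list spots higher, 8 being without MLO-Y4 high replicate 2, and 1 to 3 lower, 1 being without 2T3 C0 replicate 2, 2T3 C0 replicate 3, 2T3 low replicate 1 or MLO-Y4 low replicate 1. Over all spots these fits called 358 to 515, with 515 also being without MLO-Y4 high replicate 2. With the replicate number as a block the list had 7 higher, all spots had 629 called between the lines against 508, and the MLO-Y4 density difference of Tmsb4x stayed at 1.07 with an adjusted p of 1 in limma; neither block changed a density call. Over all spots, 2 were called between the 2T3 groups with the 40th-percentile floor. Detection limits bound Fscn1, Tmsb4x and Evl in MLO-Y4, and 3 arrays a group limit every interval.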
